A study of Mus musculus with 32 samples.

Results

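The mRNAs of 10 genes that mark T cells and natural killer (NK) cells were followed in mouse liver before and after partial hepatectomy (PH). The list is one of gene names, with no threshold on a measured value, though it was drawn up with earlier results of these data known. They are Cd3d, Cd3e and Cd3g, which encode chains of the CD3 complex, Cd4, Cd8a and Cd8b1, which encode the coreceptors of helper and cytotoxic T cells, and Nkg7, Gzma, Gzmb and Prf1, which belong to the cytotoxic granules. They are 10 of the 34729 gene names with a usable oligonucleotide on the array, and 9 of them had a signal strong enough to be tested, Cd8a being the exception.

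The CD3 chains assemble with the T cell receptor at the cell surface and carry its signal into the cell, so they are present in every T cell with that receptor. CD4 and CD8 bind the antigen-presenting molecules on the partner cell and mark the helper and the killer lineage. NK cells lack the T cell receptor and share with cytotoxic T cells a granule machinery in which perforin opens the target membrane and granzymes enter and start cell death. The mouse liver holds resident NK, NKT and T cells among a large majority of hepatocytes, and CD4 is also found on some dendritic cells.

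Liver RNA came from male C57/BL6 mice, per the study's methods 8 weeks old when the diets began, with 4 arrays in each of 8 groups. C mice ate a standard chow diet and MCD mice a diet without methionine and choline, which causes steatohepatitis, for 3 weeks before PH. The groups M+Fc-GLP-1 and C+Fc-GLP-1 had the MCD and the chow diet, and in the last 2 of these weeks received Fc-GLP-1, an agonist of the GLP-1 receptor fused to an Fc part, where C and MCD mice received saline. Each group was sampled before PH and again at 2 weeks after surgery, in which 70% of the liver was taken out, with diet and treatment kept up in between. The arrays after PH are of mice that survived the operation. The drug is named here as in the paper and in the source names of the samples, whereas their descriptions and protocol name, for all treated groups, an agent that acts on the glucagon receptor as well. The source name of C+Fc-GLP-1 after PH, and of no other group, also names a dual agonist for the weeks after surgery. The array values do not settle which agent was given, and in the comparison of the treated groups after PH a difference in agent cannot be told apart from the diet. In RNA of whole liver fewer cells of a type and less RNA per cell cannot be told apart.

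Values are given on a log2 scale, as processed signal relative to the 75th percentile of the same array, so a value of 0 is the signal of a spot at that percentile. The percentile lay between 209.4 and 778.4 intensity units. Between 35.91% of usable oligonucleotides, on replicate 2 of M+Fc-GLP-1 before PH, and 68.99%, on replicate 2 of C before PH, were well above background. The arrays lay on 5 slides. C and MCD before PH shared a slide, the treated groups shared one before PH and another after PH, and C and MCD after PH each had a slide of their own, read on another scanner. Only 3 comparisons were therefore made within a slide, and in all others slide and group cannot be told apart, except in the interactions, where an additive slide effect cancels. Tests were made with limma over all 32 arrays with Benjamini-Hochberg adjustment over 21073 genes, and a change counts as passing at an adjusted p below 0.05. The study's legends describe the tissue before PH as liver removed at surgery from mice of the same group, but no label ties an array before PH to one after PH, and the p-values measure only the spread between these arrays.

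The 10 genes were read by 13 oligonucleotides of 60 bases, with a pair each for Cd4, Cd8a and Nkg7. A gene was represented by its brightest oligonucleotide among those detected in every array of some group. The oligonucleotides of the Cd4 pair and of the Nkg7 pair did not follow each other closely, so their sequences are shown, each as bases 31 to 60 of the oligonucleotide, together with those of Cd3d, Cd3e and Gzma. Capitals mark the letters AATAAA, the hexamer of the polyadenylation signal near the end of many mRNAs, searched in the given strand. It was present in 9.97% of the 55255 usable oligonucleotides of the array.
Cd4 brighter: acagaaaAATAAAggctataAATAAAatgc
Cd4 dimmer: gcagtgtctactgagtgaaggtgataaggt
Nkg7 brighter: ccaccttgccttatccttcattggtttctt
Nkg7 dimmer: ccagtatgagatggagccagactccatttt
Cd3d: agatacccagtacagccgtcttggagggaa
Cd3e: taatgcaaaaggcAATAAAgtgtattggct
Gzma: gtctgatcacaAATAAAatcaacttgaatg
In the mm9 coordinates given with the array design, the brighter Cd4 oligonucleotide lies at chr6:124814711-124814770 and the dimmer one at chr6:124817706-124817765, both on the minus strand, and the dimmer one was printed on 10 spots of the array, which were averaged. The brighter Nkg7 oligonucleotide lies at chr7:50693530-50693589 and the dimmer one at chr7:50693148-50693207, both on the plus strand. The longest run of bases shared with an oligonucleotide of another name was 15 for the brighter Cd4 oligonucleotide, 13 for the brighter Nkg7 oligonucleotide and 14 for that of Cd3e. The Gzma oligonucleotide shared 54 of its 60 bases with 1 oligonucleotide that carries no gene name, and the Gzma transcript could reach either.

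The oligonucleotides of Cd3d, Cd3e, Gzma and Prf1 and the brighter ones of Cd4 and Nkg7 were well above background on 32 of 32 arrays. That of Cd3g was so on 27, the dimmer Nkg7 oligonucleotide on 29, that of Gzmb on 24, the dimmer Cd4 oligonucleotide on 19, that of Cd8b1 on 18, and the pair of Cd8a on 10 and 0 of 32. None was saturated on any array. The oligonucleotides of Cd3d, Cd3e, Gzma and Prf1 thus gave a signal on every array. Whether each signal comes from the named mRNA was not tested. Gzmb, well above background on 0 of 4 arrays of M+Fc-GLP-1 before PH, and the Cd8 chains were close to the limit of the array in some groups.

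The gene Cd3d, for the delta chain, had log2 values in C mice before PH of -2.53, -1.34, -2.45 and -2.21 for replicates 1 to 4. In MCD mice at that time they were -1.07, -1.61, -1.08 and -0.86. Replicate 2 of C stood above the lowest MCD array, so the groups overlapped. In C+Fc-GLP-1 mice the Cd3d values were -1.39, -1.42, -1.54 and -1.25 before PH, a narrow range that lay inside that of M+Fc-GLP-1 mice, at -1.14, -1.89, -1.98 and -1.07. After PH the means of Cd3d (SD, n = 4) were -1.33 ± 0.39 for C and -1.20 ± 0.21 for MCD mice, -0.81 ± 0.41 for C+Fc-GLP-1 mice, and -1.70 ± 0.37 for M+Fc-GLP-1 mice.

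Cd3e, for the epsilon chain, ran the other way in MCD mice. Its log2 values before PH were 1.63, 1.77, 1.24 and 1.70 in C mice and 0.51, 0.23, 0.74 and 0.38 in MCD mice, without overlap. After PH its means (SD, n = 4) were 1.89 ± 0.31 for C and 1.46 ± 0.23 for MCD mice, 1.24 ± 0.58 for C+Fc-GLP-1 mice, and 0.76 ± 0.37 for M+Fc-GLP-1 mice, the lowest after PH.

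Cd3g, for the gamma chain, had means before PH (SD, n = 4) of -2.42 ± 0.62 for C and -1.78 ± 0.67 for MCD mice, -3.04 ± 0.72 for C+Fc-GLP-1 mice, and -2.18 ± 0.29 for M+Fc-GLP-1 mice. It was well above background on only 2 of the 4 C+Fc-GLP-1 arrays at that time. After PH its values in C+Fc-GLP-1 mice were -1.17, -1.78, -1.54 and -1.23, above every array of M+Fc-GLP-1 mice, at -2.65, -2.59, -2.48 and -3.77.

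**Figure D1:**
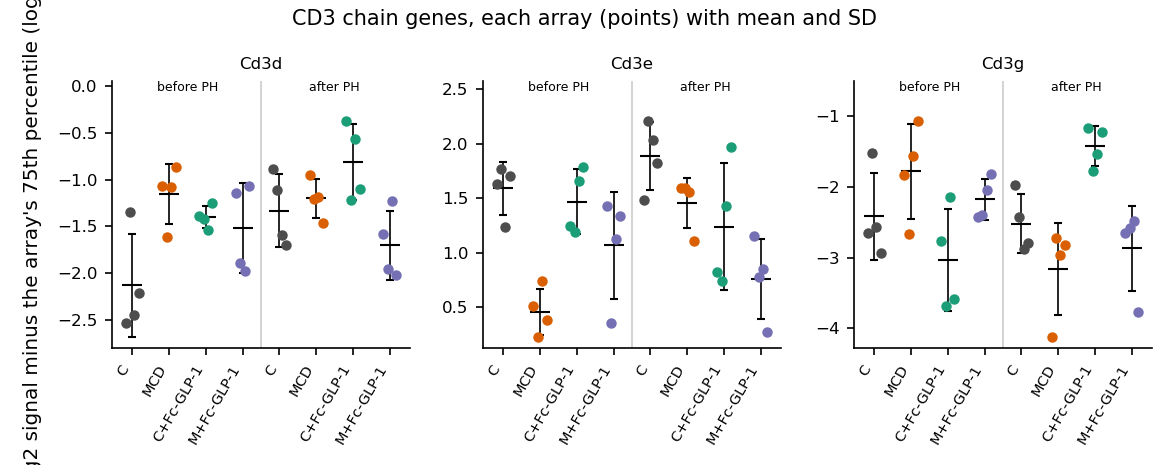
Log2 signal minus the 75th percentile of the array (vertical axis) of Cd3d, Cd3e and Cd3g in the 4 groups before PH (left of the line) and the 4 groups after PH (right of the line). Points are arrays, and bars are the mean and SD of 4 arrays. Before PH, MCD arrays lie between -1.61 and -0.86 for Cd3d against -2.53 to -1.34 in C, and between 0.23 and 0.74 for Cd3e against 1.24 to 1.77 in C.

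In the MCD diet comparison before PH, made within a slide, 3 of the 9 tested genes passed the test (33.3%), against 26.4% of all genes, and they did not go one way. Cd3d rose by 0.98 ± 0.27 (SE; adjusted p = 0.00921), whereas Cd3e fell by 1.12 ± 0.26 (adjusted p = 0.00251). Cd4 fell by 2.66 ± 0.32 (adjusted p = 1.34e-06), or 6.32-fold, from values of 6.68, 7.16, 6.10 and 5.99 in C to 3.95, 3.88, 3.87 and 3.60 in MCD mice. Gzma (0.77, adjusted p = 0.185), Gzmb (0.67, adjusted p = 0.408) and Cd3g (0.64, adjusted p = 0.215) had positive changes that did not pass, and Prf1 (-0.13), Cd8b1 (0.19) and Nkg7 (-0.38) had small ones. Cd3g passed after normexp and quantile normalization (0.61, adjusted p = 0.0233), where it took the place of Cd3d among the 3 genes, and Cd3g (1.01, adjusted p = 0.0308) and Gzma (1.13, adjusted p = 0.042) passed with centring on the median. The median change of the 9 genes was 0.19, beside -0.13 over all genes. The rise of Cd3d was 0.45 (adjusted p = 0.126) after normexp and quantile normalization and 0.43 (adjusted p = 0.112) in the authors' normalized values, and Cd4 had a change of -0.88 (adjusted p = 0.0815) with the dimmer oligonucleotide. Centring on the median in place of the 75th percentile moved the median of all genes in this comparison from -0.13 to 0.24.

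The Cd8a oligonucleotides were not tested in this fit. The brighter one was well above background on 0 of 4 C arrays, with values of -5.66, -5.17, -5.96 and -5.63, and on 3 of 4 MCD arrays, with values of -3.69, -4.95, -3.08 and -3.79. The groups did not overlap, and the MCD mean was at least 1.96-fold higher than the C mean, where each C array was set at the higher of its own value and the lowest signal called above background on that array. Without the filter on dim oligonucleotides Cd8a passed, with a change of 1.73 (adjusted p = 0.00227).

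Of the related genes that passed in this comparison all but one rose. The lists hold 25 T cell genes, 23 NK and cytotoxic genes and 18 genes for homing and survival signals, none of them a member, and 17, 12 and 16 of these had a tested signal. Of 17 tested T cell genes 5 rose and 0 fell in MCD mice before PH, with a median change of 0.77. Il7r, for the receptor of the survival cytokine IL-7, was well above background on 0 of 4 C arrays and 4 of 4 MCD arrays, at least 3.01-fold higher (means -5.85 and -3.30, adjusted p = 0.000152). Lck and Lat, of the signalling chain below the T cell receptor, rose by 0.80 and 1.21. Of 12 tested NK and cytotoxic genes 5 rose and 0 fell, with a median of 0.90. Of 16 genes for homing and survival signals 6 rose and 1 fell. Ccl4, a chemokine for T and NK cells, rose by 3.21 ± 0.76 (adjusted p = 0.00265), with only 1 of 4 C arrays above background. Ccl3, a close relative, was at least 3.28-fold higher (0 of 4 C arrays above background, adjusted p = 0.00912). S1pr1, for a receptor that guides lymphocytes out of tissue, fell by 0.98 ± 0.29 (adjusted p = 0.0142). The shares of these lists that passed were 29.4%, 41.7% and 43.8%, beside 26.4% of all genes, so that of the T cell list was close to the share over all genes.

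Other leukocytes moved in the same comparison. Of 9 tested macrophage and Kupffer cell markers 6 rose and 1 fell, and the mean level of the list was 0.97 to 1.77 on the C arrays and 1.81 to 3.28 on the MCD arrays. Of 7 dendritic cell markers 5 rose and 0 fell, and the list level was -1.62 to -0.91 in C and -0.07 to 0.29 in MCD mice. Of 7 general leukocyte genes 5 rose. Of 6 B cell markers 2 fell, with log2 changes of -1.15 for Cd79a and -1.23 for Cr2, and of 8 hepatocyte markers 3 fell, with changes of -1.13 for Apoa1, -0.56 for Fgb and -0.70 for Ass1. Of 7 red cell and platelet markers Pf4 rose by 2.13 and Alas2 fell by 1.76. Their part in the values of the T and NK cell genes was not tested.

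**Figure D2:**
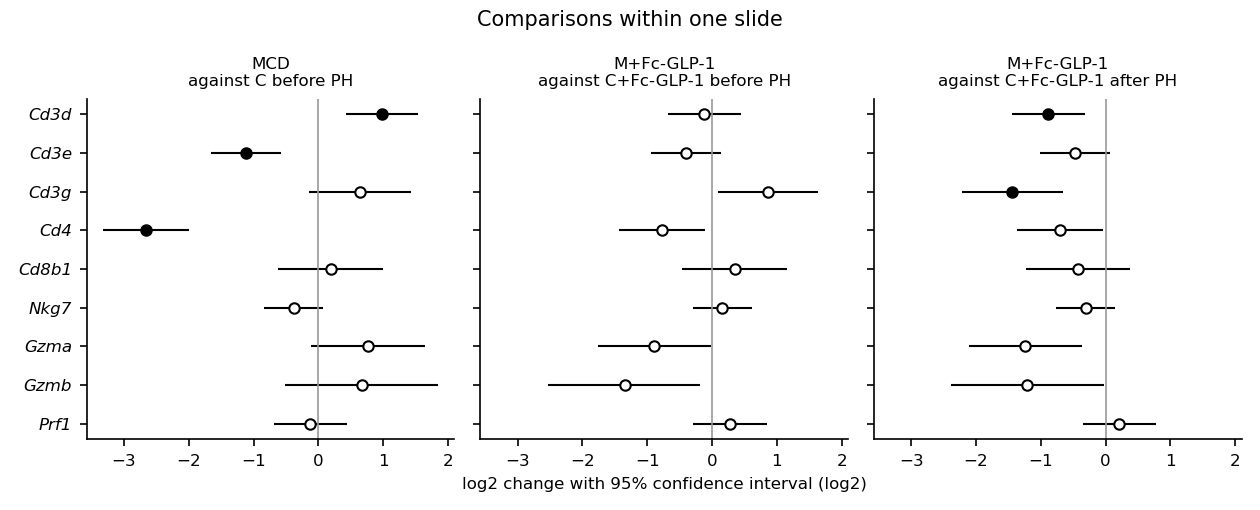
Log2 change (horizontal axis) of the 9 tested genes in the 3 comparisons made within a slide. Points are estimates, bars are 95% confidence intervals, and filled points passed the limma test. Cd3d at 0.98 and Cd3e at -1.12 lie on opposite sides of 0 in MCD against C mice before PH, and 8 of 9 estimates lie below 0 in M+Fc-GLP-1 against C+Fc-GLP-1 mice after PH.

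The same diet was compared within a slide in treated mice before PH. None of the 9 genes passed the limma test, 4 had an unadjusted p below 0.05, and 10.4% of all genes passed. The Cd3d change was -0.12 (95% interval -0.68 to 0.44) and that of Cd3e -0.40 (-0.94 to 0.14). Cd4 had a change of -0.77 (adjusted p = 0.129) and Cd3g one of 0.87 (adjusted p = 0.146). Gzma had a change of -0.89 (adjusted p = 0.192). Gzmb was well above background on 2 of 4 C+Fc-GLP-1 arrays and on 0 of 4 M+Fc-GLP-1 arrays, with means of -2.82 and -4.18. Its change of -1.35 (95% interval -2.53 to -0.18) did not pass (adjusted p = 0.134), and the groups overlapped. Without replicate 2 of C+Fc-GLP-1, whose Gzmb value of -4.43 lay below the others, Gzmb passed with a change of -1.89 (adjusted p = 0.0409). Without replicate 1 of M+Fc-GLP-1 mice Cd4 passed with a change of -1.07 (adjusted p = 0.0349).

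Among the T cell genes in treated mice Il7r was again at least 2.31-fold higher on the MCD diet (0 of 4 C+Fc-GLP-1 arrays above background, adjusted p = 0.000953). Skap1, an adaptor of T cell adhesion, fell by 1.34 ± 0.40 (adjusted p = 0.0317), with 2 of 4 M+Fc-GLP-1 arrays above background. Cd247, for the zeta chain of the receptor complex, fell by 0.87. Of the homing genes 0 rose and 4 fell. None of the 12 NK and cytotoxic genes passed, and 2 had an unadjusted p below 0.05.

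The effect of the diet on Cd4 differed between untreated and treated mice before PH by 1.89 ± 0.46 (interaction in limma, adjusted p = 0.017). It was the single member among 9 to pass, where 6.15% of all genes did. The Cd4 means (SD, n = 4) were 6.48 ± 0.54 for C and 3.82 ± 0.15 for MCD mice, and 5.54 ± 0.29 for C+Fc-GLP-1 against 4.77 ± 0.66 for M+Fc-GLP-1 mice, so the diet gap was wide in untreated mice and narrow in treated mice. The interaction of Cd4 did not pass with the dimmer oligonucleotide (1.04, adjusted p = 0.233), with centring on the median (1.26, adjusted p = 0.0519), in the authors' normalized values (1.21, adjusted p = 0.176) or after normexp and quantile normalization (1.24, adjusted p = 0.0878). For Cd3d the interaction was -1.10 (adjusted p = 0.0844), for Gzma -1.66 (adjusted p = 0.0949) and for Gzmb -2.02 (adjusted p = 0.129). With centring on the median these passed at -1.72 (adjusted p = 0.00615), -2.28 (adjusted p = 0.012) and -2.64 (adjusted p = 0.0379), where the median of all genes moved from 0.15 to -0.47. Without replicate 2 of C before PH, Cd3d (-1.36, adjusted p = 0.0318) and Gzma (-2.0, adjusted p = 0.0481) passed, which made 3 genes. Among related genes Klrc1, for an NK cell receptor chain, had the interaction -2.78 ± 0.81 (adjusted p = 0.0384). Of 9 macrophage markers 4 passed in this interaction, all below 0, with a median of -2.19.

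The brighter and the dimmer Cd4 oligonucleotide gave different pictures. In C mice before PH the dimmer one had values of -3.17, -2.49, -4.20 and -3.64 and was above background on 3 of 4 arrays. In MCD mice they were -5.08, -4.30, -3.76 and -3.87. These groups overlapped, while those of the brighter one were far apart. In MCD mice after against before PH the brighter Cd4 oligonucleotide had a change of 1.09 and the dimmer one of -0.60 (adjusted p = 0.352). Across the 32 arrays the pair correlated at r = 0.45, and within groups at r = 0.27, as a description. The Nkg7 pair correlated at r = 0.27, and within groups at r = 0.21. In M+Fc-GLP-1 against MCD mice before PH the brighter Nkg7 oligonucleotide had a change of 0.64 (adjusted p = 0.0796) and the dimmer one of -0.86 (adjusted p = 0.272), each adjusted over all oligonucleotides that passed the filter. After PH these changes were -0.66 (adjusted p = 0.0741) and -1.35 (adjusted p = 0.083), each with groups that did not overlap. Which of each pair reads the named mRNA was not tested.

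**Figure D3:**
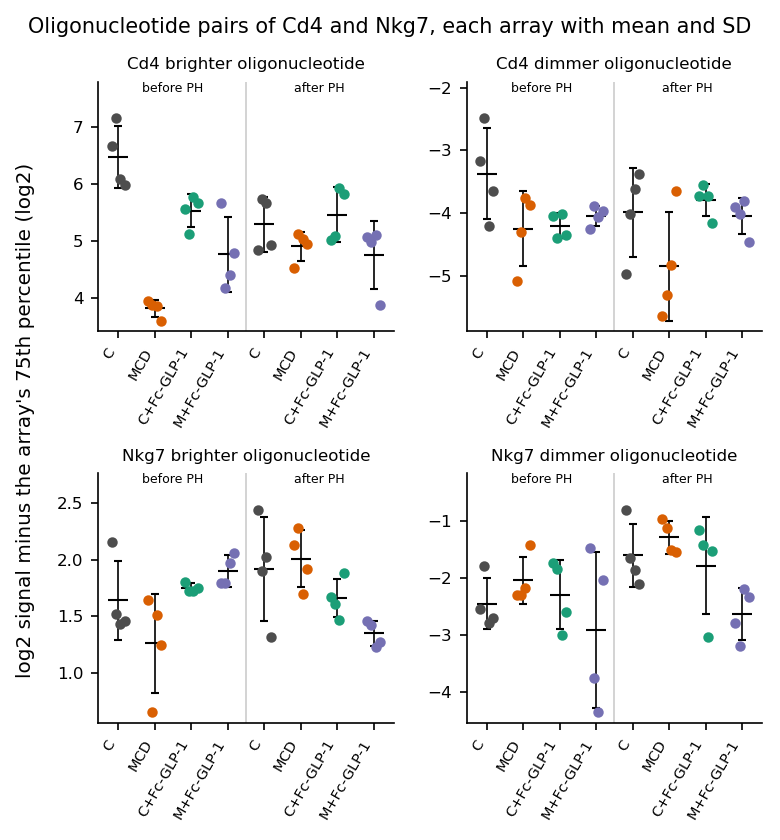
Log2 signal minus the 75th percentile of the array (vertical axis) of the Cd4 and Nkg7 oligonucleotide pairs in the 4 groups before PH and the 4 groups after PH, with arrays as points and the mean and SD of 4 arrays as bars. The brighter Cd4 oligonucleotide lies at 5.99 to 7.16 in C and 3.60 to 3.95 in MCD mice before PH, while the ranges of the dimmer one overlap in these groups.

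The treatment itself was compared before PH between slides, as stated above. In chow-fed mice 0 of the 9 genes passed the limma test, with 3 at an unadjusted p below 0.05, and 2.11% of all genes passed. The Gzma values were -1.89, -0.55, -1.72 and -2.18 in C and -0.06, -0.59, -0.52 and -0.31 in C+Fc-GLP-1 mice, overlapping only through replicate 2 of C. The change of Gzma, granzyme A, was 1.21 ± 0.43 (adjusted p = 0.12), and that of Cd3d was 0.73 ± 0.27 (adjusted p = 0.146). Both passed in the authors' normalized values, at 1.15 (adjusted p = 0.0111) and 0.64 (adjusted p = 0.0396), after normexp and quantile normalization, at 1.20 (adjusted p = 0.0327) and 0.66 (adjusted p = 0.041), and with centring on the median, at 1.52 (adjusted p = 0.0326) and 1.03 (adjusted p = 0.0317). Cd4 had a change of -0.95 (adjusted p = 0.111) with groups that did not overlap. Among related genes Lck rose by 0.98 ± 0.23 (adjusted p = 0.0263), the single T cell gene of 17 to pass. Of 7 red cell and platelet markers the platelet genes Ppbp and Pf4 rose by 2.46 and 2.12.

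In mice on the MCD diet 0 of the 9 genes passed before PH, with 4 at an unadjusted p below 0.05, and 7.22% of all genes passed. Nkg7 had a change of 0.64 ± 0.22 (adjusted p = 0.0731) and Cd4 one of 0.94 ± 0.32 (adjusted p = 0.07), both with groups that did not overlap. Compared with MCD mice, Gzmb had a change of -1.22 under treatment (means -4.18 and -2.96, interval -2.39 to -0.04). It did not pass (limma adjusted p = 0.193), and the groups overlapped. The fold bound on these means was 1.69, which leaves out the spread between arrays. Cd3e had a change of 0.60 (adjusted p = 0.158). Without replicate 2 of M+Fc-GLP-1, the array with the fewest oligonucleotides above background, Cd3e (0.84, adjusted p = 0.048) and Cd4 (1.14, adjusted p = 0.0373) passed. Of the 12 NK and cytotoxic genes 1 rose and 2 fell. Gzmk, another granzyme, rose by 1.10 ± 0.35 (adjusted p = 0.0493), and Xcl1, a chemokine made by NK and T cells, was at least 2.16-fold lower (0 of 4 arrays above background, adjusted p = 0.0479). In the homing list 1 gene rose and 4 fell. Il15ra, for the chain that presents IL-15 to NK cells, rose by 1.59 ± 0.38 (adjusted p = 0.0126). Ccl4 fell by 2.59 ± 0.76 (adjusted p = 0.0373), with 0 of 4 M+Fc-GLP-1 arrays above background. None of 17 T cell genes passed, 7 had an unadjusted p below 0.05 and their median change was -0.56. Of 9 macrophage markers 4 fell and 0 rose, and their list level was 1.81 to 3.28 in MCD and 0.60 to 2.00 in M+Fc-GLP-1 mice, which was not tested as a part of these changes.

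At 2 weeks after PH the diet was compared within a slide in treated mice. Of the 9 genes 2 passed (22.2%), both lower in M+Fc-GLP-1 mice, against 12.8% of all genes. Cd3g fell by 1.44 ± 0.38 (adjusted p = 0.011), or 2.71-fold, and Cd3d fell by 0.89 ± 0.27 (adjusted p = 0.0301), or 1.85-fold, each with groups that did not overlap. Gzma had a change of -1.24 ± 0.43 (adjusted p = 0.0536), from 0.05, -0.74, 0.86 and -0.31 in C+Fc-GLP-1 to -0.65, -1.67, -1.06 and -1.71 in M+Fc-GLP-1 mice. Gzmb had a change of -1.21 (adjusted p = 0.181), Cd4 of -0.71 (adjusted p = 0.162), Cd3e of -0.48 (adjusted p = 0.267), Cd8b1 of -0.43 and Nkg7 of -0.31, while Prf1 had one of 0.21. The median over the 9 genes was -0.71, beside -0.01 over all genes.

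The Cd3g call was lost without replicate 4 of M+Fc-GLP-1 after PH (-1.14, adjusted p = 0.0553) and held at smaller size after normexp and quantile normalization (-0.79, adjusted p = 0.00921) and in the authors' normalized values (-0.88, adjusted p = 0.0052). The Cd3d call was lost without replicate 1 (-0.74, adjusted p = 0.104) or 3 (-0.80, adjusted p = 0.0905) of C+Fc-GLP-1, without replicate 2 (-0.80, adjusted p = 0.0917) or 4 (-0.78, adjusted p = 0.091) of M+Fc-GLP-1, and in a fit of these groups alone (adjusted p = 0.0791). It was also lost after normexp and quantile normalization (-0.60, adjusted p = 0.074), in the authors' normalized values (-0.65, adjusted p = 0.103) and without the filter on dim oligonucleotides (-0.89, adjusted p = 0.0624). Gzma passed in that comparison without replicate 2 of C+Fc-GLP-1 (-1.47, adjusted p = 0.035) or replicate 1 of M+Fc-GLP-1 (-1.45, adjusted p = 0.0423).

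Of 17 tested T cell genes 6 fell and 0 rose in M+Fc-GLP-1 against C+Fc-GLP-1 mice after PH, with a median of -0.84. Zap70, the kinase that binds the CD3 chains, fell by 1.78 ± 0.42 (adjusted p = 0.00506) and Cd7, a surface protein of T and NK cells, fell by 1.75 ± 0.32 (adjusted p = 0.00037). Of 12 NK and cytotoxic genes 2 fell. Ifng, for interferon gamma, was at least 2.03-fold lower (0 of 4 M+Fc-GLP-1 arrays above background, adjusted p = 0.0108), and Ccl5 fell by 1.15. Of 16 homing genes 5 fell and 1 rose. B cell markers went the same way: 4 of 6 fell, among them Ms4a1 with a change of -2.24, Cd79b with -1.22 and Cd22 with -0.91. Of 9 macrophage markers 2 fell, with changes of -1.51 for Timd4 and -1.08 for Clec4f, and of 8 hepatocyte markers 0 passed. The mean level of the T cell list was -1.73 to -1.26 on the C+Fc-GLP-1 arrays and -2.42 to -1.88 on the M+Fc-GLP-1 arrays.

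Cd3d and Cd3g, which fell together here, are neighbours on chromosome 9 in opposite orientation, with Cd3e beside them. On GRCm38 the RefSeq genes span chr9:44969572-44980431 (Cd3g, minus strand), chr9:44981769-44987052 (Cd3d, plus strand) and chr9:44998735-45009663 (Cd3e, minus strand). The 250 bases before the RefSeq start used for each gene are shown on GRCm38.p6, 5′ to 3′ on the strand of the gene, because these genes lie side by side. The Cd3e signal went against that of Cd3d in MCD mice before PH, though the rise of Cd3d did not pass in every normalization. Whether the windows bear on these signals was not tested. Capitals mark AGGAAG or CTTCCT (a core of ETS sites, on either strand), TGTGGT or ACCACA (RUNX) and CAGGTG or CACCTG (E-box).
Cd3g (chr9:44980432-44980681): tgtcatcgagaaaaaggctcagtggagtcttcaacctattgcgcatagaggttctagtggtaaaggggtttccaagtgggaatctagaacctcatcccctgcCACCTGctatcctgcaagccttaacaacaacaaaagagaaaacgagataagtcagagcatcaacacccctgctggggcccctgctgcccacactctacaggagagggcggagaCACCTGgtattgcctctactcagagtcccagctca
Cd3d (chr9:44981536-44981785): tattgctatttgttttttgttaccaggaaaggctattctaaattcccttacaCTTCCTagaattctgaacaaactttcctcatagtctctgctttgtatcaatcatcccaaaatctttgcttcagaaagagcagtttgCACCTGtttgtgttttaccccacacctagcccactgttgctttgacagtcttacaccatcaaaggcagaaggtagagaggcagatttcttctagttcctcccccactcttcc
Cd3e (chr9:45009612-45009861): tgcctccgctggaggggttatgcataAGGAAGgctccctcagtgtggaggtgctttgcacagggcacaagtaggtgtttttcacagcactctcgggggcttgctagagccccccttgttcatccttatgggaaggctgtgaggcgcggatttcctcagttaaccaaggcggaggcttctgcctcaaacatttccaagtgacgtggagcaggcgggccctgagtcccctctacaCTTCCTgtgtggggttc
The letters of the ETS core were found 0, 1 and 2 times in the windows of Cd3g, Cd3d and Cd3e, those of the E-box 2, 1 and 0 times, and those of RUNX 0 times in each. Over 32851 windows of the same length 29.5% held the ETS letters, 17.2% the E-box letters and 14.0% the RUNX letters. A match is a run of letters and not a site. The starts used for Cd3d and Cd3e lie inside the span given for the gene, so that the last 17 bases of the Cd3d window and the last 52 of the Cd3e window are part of that span, with 1 of the 2 ETS matches of Cd3e.

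In untreated mice 2 weeks after PH, with C and MCD on slides of their own, 0 of the 9 genes passed between the diets, 0 had an unadjusted p below 0.05, and 12.1% of all genes passed limma. Cd3d differed by 0.12 (95% interval -0.44 to 0.68), Cd3e by -0.43 (-0.97 to 0.12), Cd4 by -0.39 (-1.05 to 0.27) and Gzma by -0.16 (-1.03 to 0.71). Of the 12 NK and cytotoxic genes 3 rose and 0 fell (25.0%). Klrb1c, for the NK1.1 antigen, rose by 2.12 ± 0.45 (adjusted p = 0.00203), with only 1 of 4 C arrays above background. Gzmm, a granzyme of NK cells, rose by 1.87 ± 0.41 (adjusted p = 0.00289), with 2 of 4 C arrays above background. Il2rb, for a receptor chain of IL-2 and IL-15, rose by 0.93 ± 0.31 (adjusted p = 0.0459). Of the 17 T cell genes 1 rose, Tcf7, for a T cell transcription factor, by 1.25 ± 0.34, and Cd247 fell by 0.90 ± 0.25, a share of 11.8% close to that over all genes. Il15ra rose by 1.28 ± 0.38 (adjusted p = 0.0267) and S1pr1 fell by 1.37 ± 0.29 (adjusted p = 0.00255). Of 8 neutrophil markers 5 rose and 0 fell, with a median of 2.44.

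The treatment after PH was again compared between slides. In chow-fed mice 0 of the 9 genes passed limma, with 2 at an unadjusted p below 0.05, and 2.06% of all genes passed. These went opposite ways. Cd3g had the change 1.09 ± 0.38 (adjusted p = 0.138), with groups that did not overlap, and Cd3e one of -0.64 ± 0.26 (adjusted p = 0.23), with groups that overlapped. None of the T cell, NK or homing genes passed, with 4, 2 and 3 at an unadjusted p below 0.05. On the MCD diet 0 of 9 genes passed, with 3 at an unadjusted p below 0.05, and 6.50% of all genes passed. Gzma had a change of -1.22 ± 0.43 (adjusted p = 0.0817), with all arrays of M+Fc-GLP-1 below those of MCD, at 0.14, 0.13, -0.07 and -0.40. Nkg7 had a change of -0.66 ± 0.22 (adjusted p = 0.0697), and 2.13, 2.28, 1.70 and 1.92 in MCD lay above 1.46, 1.42, 1.23 and 1.27 in M+Fc-GLP-1 mice. Before PH the Nkg7 change under the same treatment was 0.64, of the other sign, with this brighter oligonucleotide, whereas that of the dimmer one was below 0 at both times, at -0.86 and -1.35. The difference between the times was not tested. Klrc1 fell by 2.34 ± 0.57 (adjusted p = 0.013), with 1 of 4 M+Fc-GLP-1 and 3 of 4 MCD arrays above background. Ccl5, a chemokine of activated T and NK cells, fell by 1.26 ± 0.35 (adjusted p = 0.0302). Of 8 neutrophil markers 6 fell, with a median of -2.71, and 3 of 9 macrophage markers fell.

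The 2 weeks after PH were compared with the time before within each group, between slides. In C mice 3 of the 9 genes passed (33.3%), against 14.0% of all genes. Gzma rose by 1.69 ± 0.43 (adjusted p = 0.00904), from -1.89, -0.55, -1.72 and -2.18 to 1.79, -0.46, -0.22 and -0.69, with replicate 1 after PH far above the others. Without that array the change was 1.13 (adjusted p = 0.0622), and in a fit of the 2 groups alone its adjusted p was 0.1. The same array had the highest Gzmb value, -0.25 against -2.43, -3.39 and -2.96, and the change of Gzmb was 1.37 (adjusted p = 0.106). Cd3d rose by 0.80 ± 0.27 (adjusted p = 0.0474), a call lost in 9 of 15 alternatives, with 0.20 (adjusted p = 0.535) after normexp and quantile normalization, and Cd4 fell by 1.18 ± 0.32 (adjusted p = 0.0151), lost in 5 of 16, among them normexp with quantile normalization (-0.30, adjusted p = 0.494) and the dimmer oligonucleotide (-0.62, adjusted p = 0.281). Without replicate 2 of C before PH the Cd4 change was -0.96 (adjusted p = 0.0602), and without replicate 1 after PH -1.03 (adjusted p = 0.0652). For Cd3d the adjusted p was 0.132, 0.121 and 0.0898 without replicates 1, 3 and 4 before PH and 0.164 and 0.109 without replicates 1 and 2 after PH.

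Of 17 T cell genes 4 rose in C mice after PH, led by Icos, a costimulatory receptor, at 2.15 ± 0.37 (adjusted p = 0.000441). Icos was above background on 2 of 4 C arrays before PH. Of 12 NK and cytotoxic genes 2 rose, Klrd1 by 1.44 and Ccl5 by 1.12. Of 9 macrophage markers 8 rose, and their list level was 0.97 to 1.77 before and 2.27 to 4.26 after PH, highest on replicate 1.

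In MCD mice 4 of the 9 genes passed after against before PH (44.4%), against 9.43% of all genes, and they again differed in direction. Cd3e rose by 1.00 ± 0.26 (adjusted p = 0.0157), to 1.59, 1.59, 1.56 and 1.11, and Cd3g fell by 1.38 ± 0.38 (adjusted p = 0.0197), to -4.12, -2.73, -2.97 and -2.83 from -1.83, -2.67, -1.57 and -1.07. Cd4 rose by 1.09 ± 0.32 (adjusted p = 0.0312) and Nkg7 by 0.75 ± 0.22 (adjusted p = 0.0313). In each of these 4 genes the arrays of the groups did not overlap. The Cd3e call was lost without replicate 2 before PH (0.92, adjusted p = 0.0534). The Cd3g call was lost without replicates 3 (adjusted p = 0.0561) or 4 (adjusted p = 0.0837) before PH or 1 after PH (-1.06, adjusted p = 0.0947), and the change was -0.72 (adjusted p = 0.0257) after normexp and quantile normalization. The Cd4 call was lost without any of 7 of the 8 arrays, all but replicate 1 after PH, with adjusted p from 0.0509 to 0.0824, and the Nkg7 call without replicates 2 (adjusted p = 0.148) or 4 (adjusted p = 0.0653) before PH or 1 (adjusted p = 0.0763) or 2 (adjusted p = 0.102) after PH. The Cd4 call was also lost without the filter on dim oligonucleotides (adjusted p = 0.0548) and with the mean over its oligonucleotides (0.24, adjusted p = 0.655), and the dimmer one alone gave -0.60 (adjusted p = 0.352). The Nkg7 call was also lost with centring on the median (0.66, adjusted p = 0.144), without that filter (adjusted p = 0.0611), with the mean over its oligonucleotides (0.76, adjusted p = 0.0996), in a fit of these groups alone (adjusted p = 0.0866) and with the dimmer oligonucleotide (0.76, adjusted p = 0.348). Lat, an adaptor below the T cell receptor, fell by 1.94 ± 0.41 (adjusted p = 0.00336). Il15 fell by 1.07 ± 0.35 (adjusted p = 0.0485), with 2 of 4 arrays after PH above background. Of the 12 NK and cytotoxic genes 0 passed, with 1 at an unadjusted p below 0.05. Of 8 neutrophil markers 6 rose, with a median of 2.98.

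In C+Fc-GLP-1 mice Cd3g alone of the 9 genes passed after against before PH, rising by 1.61 ± 0.38 (adjusted p = 0.039) from -2.77, -3.68, -2.14 and -3.58, while 0.835% of all genes passed. That call was lost without replicates 1 (adjusted p = 0.0728), 2 (adjusted p = 0.1) or 4 (adjusted p = 0.124) before PH or 1 (adjusted p = 0.126), 3 (adjusted p = 0.0882) or 4 (adjusted p = 0.0743) after PH, and in a fit of the 2 groups alone (adjusted p = 0.0826), and the change was 0.79 (adjusted p = 0.0231) after normexp and quantile normalization. Il15 was at least 2.43-fold higher after PH (0 of 4 arrays above background before, adjusted p = 0.0481). All 17 T cell genes had a positive change, with a median of 0.57, though 0 passed and 6 had an unadjusted p below 0.05. This was not particular to T cells. Changes were also positive in 7 of 7 general leukocyte genes (median 0.88), 7 of 7 dendritic cell markers (0.82) and 6 of 6 B cell markers (0.46). The same held for 8 of 9 macrophage markers (1.08) and 7 of 8 neutrophil markers (1.29), but for 4 of 8 hepatocyte markers and 0 of 7 red cell and platelet markers. In M+Fc-GLP-1 mice 0 of the 9 genes passed, with 1 at an unadjusted p below 0.05, and 1.71% of all genes passed. Nkg7 had a change of -0.56 (adjusted p = 0.2), with groups that did not overlap. The effect of the diet under Fc-GLP-1 differed between the times by -2.30 ± 0.54 for Cd3g (interaction, adjusted p = 0.0997), and 0 of the 9 genes passed in that interaction, with 1 at an unadjusted p below 0.05, beside 0.0949% of all genes.

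The signal of the oligonucleotide of Prf1, for perforin, kept within narrow bounds. Its group means lay between -1.78 ± 0.18 in MCD mice before PH and -1.12 ± 0.26 in M+Fc-GLP-1 mice after PH (SD, n = 4), and it passed in none of the 14 comparisons. Cd8b1, for the beta chain of CD8, had group means from -4.23 ± 0.68 to -3.41 ± 0.26, both in C+Fc-GLP-1 mice, before and after PH, and was well above background on 0 of 4 arrays in both treated groups before PH. Its change in C+Fc-GLP-1 mice after against before PH was 0.81 (interval 0.01 to 1.62). That change did not pass (limma adjusted p = 0.323), and the groups overlapped. The fold bound on the means was 1.58, which leaves out the spread between arrays. Gzmb, granzyme B, had its lowest mean, -4.18 ± 1.12, in M+Fc-GLP-1 mice before PH and its highest, -2.26 ± 1.39, in C mice after PH, and it passed in none of the 14.

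**Figure D4:**
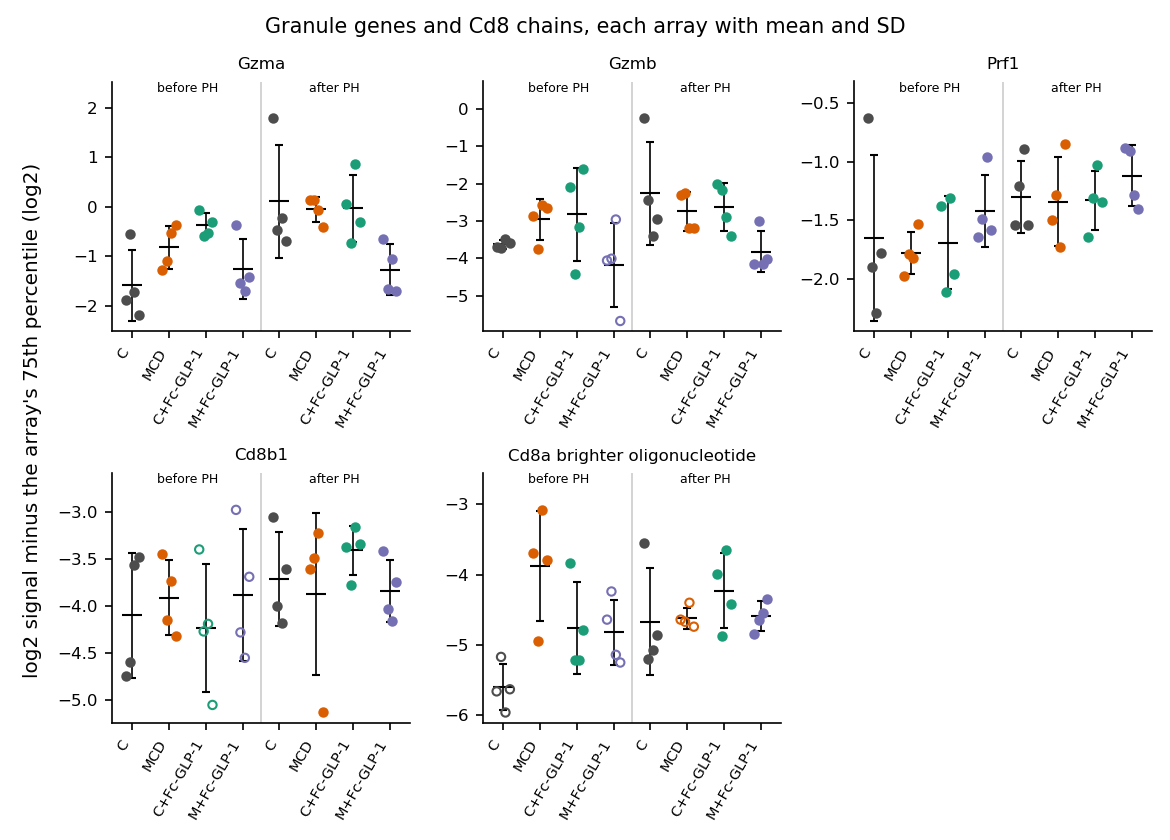
Log2 signal minus the 75th percentile of the array (vertical axis) of Gzma, Gzmb, Prf1, Cd8b1 and the brighter Cd8a oligonucleotide in the 8 groups, with arrays as points and mean and SD of 4 arrays as bars. Open points mark groups in which 0 of 4 arrays were well above background. Replicate 1 of C after PH is the highest array for Gzma, at 1.79, and for Gzmb, at -0.25.

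Correlations between members over the 32 arrays, which share slides and groups, are a description with no test. Cd3d correlated with Gzma at r = 0.75, with the brighter Cd8a oligonucleotide at 0.64, with the dimmer Nkg7 oligonucleotide at 0.58, with Cd3g at 0.42 and with Cd3e at 0.02. Within groups, with the group means taken out, the values of Cd3d were 0.71 with Gzma, 0.43 with Cd3g and 0.29 with Cd3e. Gzma correlated with Gzmb at 0.61 and within groups at 0.35. Cd3e correlated with the brighter Cd4 oligonucleotide at 0.74. With the mean of the 17 T cell genes, none of which is a member, Cd3d correlated at 0.92, Gzma at 0.73, the dimmer Nkg7 oligonucleotide at 0.66, the brighter Cd8a oligonucleotide at 0.62, Cd3g at 0.45 and Gzmb at 0.42. The values were 0.06 for Cd3e, 0.04 for the brighter Nkg7 oligonucleotide, -0.09 for Prf1, -0.10 for the dimmer Cd4 oligonucleotide and -0.14 for the brighter one. The signals of Cd3e and Prf1 thus did not follow the other T cell genes, and whether they read the named mRNA was not tested. Cd3d also correlated with the mean of the macrophage markers at 0.70, and Cd3e and the brighter Cd4 oligonucleotide with that of the B cell markers at 0.69 and 0.65. For the brighter Cd4 oligonucleotide the values were 0.52 with the hepatocyte markers, -0.63 with the dendritic cell markers and -0.40 with the NK and cytotoxic genes.

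**Figure D5:**
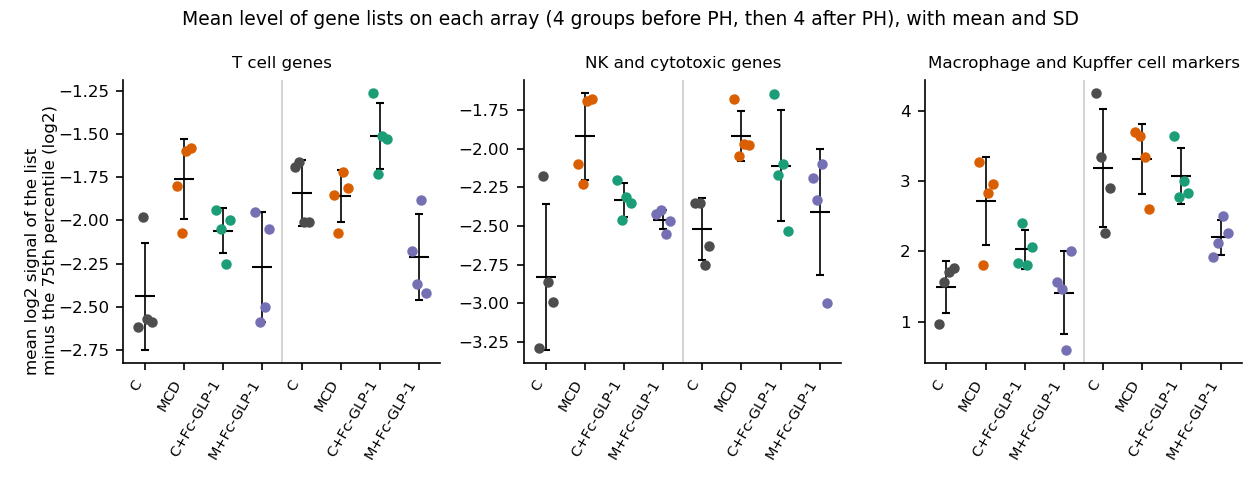
Mean log2 signal minus the 75th percentile of the array (vertical axis) over 17 T cell genes, 12 NK and cytotoxic genes and 9 macrophage and Kupffer cell markers in the 4 groups before PH (left of the line) and the 4 groups after PH. Points are arrays, and bars are the mean and SD of 4 arrays. The T cell list lies at -1.73 to -1.26 in C+Fc-GLP-1 and at -2.42 to -1.88 in M+Fc-GLP-1 mice after PH.

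Among the 10 tested genes most like the mean of the 3 CD3 chains over the 32 arrays were Pou2af1 (r = 0.72), a B cell coactivator, Vrk2 (0.71), Ifng (0.70), Cd7 (0.69), Slfn10-ps (0.68), Aldoc, Rassf5, Asah2 and Gucy1a2 (0.67 each). Among the 10 most like the mean of Nkg7, Gzma, Gzmb and Prf1 were the unnamed oligonucleotide that shares its bases with that of Gzma (0.83), Itgb7 and Il4ra (0.78 each), an unnamed transcript and C130050O18Rik (0.74 each), Naaa, Wdfy1 and Tmem229b (0.73 each), and another unnamed transcript (0.72). Itgb7 encodes an integrin chain of homing lymphocytes. Likeness to single genes was computed after the values were seen. Fut7 (0.81), St8sia4 and Cd52 (0.80 each) were among the 5 most like Cd3d. Ptpn5 and Dab1 (0.91 each), both known from neurons, were among the 5 most like Cd3e, and Ptms (0.86), for parathymosin, was among the 5 most like the brighter Cd4 oligonucleotide.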

How the data were processed

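Total liver RNA was hybridized to 1-colour arrays of 62976 spots, 1 array per sample. The authors deposited scanner output with 1 processed intensity per spot (Feature Extraction 10.7.3.1), background corrected and detrended within the array per the file headers, and a table of normalized log2 values, made with limma per the labels and apparently separately before and after PH, so it was not used across time. Processed signals were converted to log2 and centred on each array's 75th percentile, taken over 59305 spots that are not controls. Flagged spots were left out, with 426 oligonucleotides. Oligonucleotides had to be well above background throughout some group (28937 were), and for each of 21073 genes the brightest was used, named by the array's annotation and placed by RefSeq. The 8 groups were fitted together with limma 3.58.1 (R 4.3.3), with an adjusted p threshold of 0.05. Intervals are at 95%. Precision is limited by the 4 arrays in a group. Bounds compare means, with an undetected array set at the lowest signal called above background on it where that is higher. They do not take in the spread between arrays. The members, the lists and the alternatives were chosen with earlier results of these data known. Named genes were the members, up to 3 related genes per direction and comparison with the largest changes past the threshold and without overlap of groups (a condition not applied to interactions), and the 10 genes most like the mean of the CD3 chains and of the granule genes. Other genes of a list are named where 5 or fewer passed or as examples chosen after their values were seen. Some genes that these rules name are not reported here, though the counts and medians of their lists include them. In a test on simulated data with 200 of 21073 genes changed in the comparison of MCD with C before PH, 29% of log2 changes of 1 and 78% of changes of 2 were recovered. In the data 26.4% of genes passed in that comparison, far more than were changed in the simulation. The recovered shares therefore do not give its power. The alternatives were normexp with quantile normalization, centring on the median, the authors' log2 values, no filter on dim oligonucleotides, the mean over a gene's oligonucleotides, leaving each array out, a block for the replicate number, and a fit restricted to the groups in question. A percentile over oligonucleotides above background on every array, and the dimmer oligonucleotides of Cd4 and Nkg7, were chosen after seeing the data.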

Additional observations from a re-analysis of the deposited data

Results flagged for a closer look

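In 104 sets of 4 arrays (13 oligonucleotides in 8 groups), 7 held an array far from the other 3, and chance gives about 5% of sets. Cd3e stood at 1.11 on replicate 4 of MCD after PH, with the others at 1.56 to 1.59. Cd3g stood at -4.12 on replicate 1 of MCD after PH, with the others at -2.97 to -2.73, and at -3.77 on replicate 4 of M+Fc-GLP-1 after PH, with the others at -2.65 to -2.48. The brighter Cd4 oligonucleotide stood at 3.88 on the latter array, with the others at 4.99 to 5.11. The brighter Nkg7 oligonucleotide stood at 2.16 on replicate 1 of C before PH, with the others at 1.43 to 1.52, and the dimmer one at -1.42 on replicate 4 of MCD before PH, with the others at -2.29 to -2.18. Gzmb stood at -3.0 on replicate 2 of M+Fc-GLP-1 after PH, with the others at -4.16 to -4.01. The effect of the MCD diet on Cd4 differed between treated and untreated mice before PH, by 1.89 in the interaction term. That difference did not pass with the dimmer oligonucleotide (1.04, limma adjusted p = 0.233). Nor did it pass with centring on the median, in the authors' normalized values or after normexp and quantile normalization.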

How the results depend on the processing

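Counts are of the 9 tested genes (10 without the filter on dim oligonucleotides). Only the larger moves are listed, so a count that is not listed may also have changed. In MCD against C before PH, Cd3d did not pass with the authors' values, and Cd4 did not pass with the dimmer oligonucleotide. With centring on the median 5 genes passed in MCD against C, 1 in M+Fc-GLP-1 against C+Fc-GLP-1, 2 in C+Fc-GLP-1 against C and 3 in the interaction before PH, and 1 in M+Fc-GLP-1 against MCD after PH. With normexp and quantile normalization the counts were 2 in C+Fc-GLP-1 against C before PH, 1 in M+Fc-GLP-1 against C+Fc-GLP-1, with 2 in M+Fc-GLP-1 against MCD after PH, 1 in C after against before PH and 0 in the interaction before PH. With the authors' values they were 2 in C+Fc-GLP-1 against C and 1 in M+Fc-GLP-1 against MCD before PH, 1 in M+Fc-GLP-1 against MCD after PH and 0 in the interaction before PH. Without the filter they were 1 in M+Fc-GLP-1 against MCD before PH, 1 in M+Fc-GLP-1 against C+Fc-GLP-1 after PH and 2 in MCD after against before PH. With the mean over a gene's oligonucleotides they were 1 in M+Fc-GLP-1 against MCD after PH and 2 in MCD after against before PH. In fits of only the groups compared they were 1 in M+Fc-GLP-1 against C+Fc-GLP-1, with 1 in M+Fc-GLP-1 against MCD after PH, and 0 in C and 0 in C+Fc-GLP-1 mice after against before PH. With the dimmer oligonucleotides of Cd4 and Nkg7 they were 1 in C and 2 in MCD mice after against before PH and 0 in the interaction before PH, and the rise of Cd4 in MCD mice after against before PH turned to -0.60. The cause of these differences was not tested.

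With single arrays left out the count was 3 to 3 in MCD against C, 0 to 1 in M+Fc-GLP-1 against C+Fc-GLP-1 (1 without replicate 2 of C+Fc-GLP-1 or replicate 1 of M+Fc-GLP-1), 0 to 0 in C+Fc-GLP-1 against C, 0 to 2 in M+Fc-GLP-1 against MCD (2 without replicate 2 of M+Fc-GLP-1) and 1 to 3 in the interaction (3 without replicate 2 of C), all before PH. After PH it was 0 to 3 in M+Fc-GLP-1 against C+Fc-GLP-1. After against before PH it was 0 to 3 in C (0 without replicate 1 after PH), 1 to 3 in MCD and 0 to 1 in C+Fc-GLP-1 mice. In the other 5 comparisons it stayed at 0. A percentile over oligonucleotides above background on every array left each count as it was. Whether equal replicate numbers mean the same mouse is not known. Arrays that share group and number across PH had a mean correlation of deviations of 0.0126, with 0 of 16 pairs over 0.1. This cannot exclude a pairing, since the arrays of a pair lay on different slides and the liver had regrown in between. With the replicate number as a block the count moved from 2 to 3 in M+Fc-GLP-1 against C+Fc-GLP-1 after PH and from 3 to 2 in C mice after against before PH. Limits are 4 arrays per group, comparisons that coincide with slides, single oligonucleotides for most genes, and signals of Cd8a, Cd8b1, Cd3g and Gzmb near background.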
